A study of Homo sapiens with 12 samples.

Results

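Prostate luminal identity was followed here through 9 genes: the keratins KRT8, KRT18 and KRT19, the transcription factors HOXB13, FOXA1, GATA2, SPDEF and GRHL2, and the enzyme AMACR. Every array probe carrying 1 of these 9 symbols was taken and kept apart from the other probes of its gene, which gave 12 probes of the 47322 on the array. KRT18 had 2 probes, AMACR had 3, and each of the other 7 genes had 1. The genes are 9 of 20046 with a named probe.

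Luminal cells are the secretory cells that line the prostate gland, and most prostate cancers keep their features. Keratins 8 and 18 pair into the intermediate filaments of simple epithelia, and keratin 19 is a further keratin of such epithelia. FOXA1 and GATA2 are pioneer-type factors that open chromatin at hormone-responsive sites, HOXB13 is a prostate homeobox factor, and GRHL2 and SPDEF are epithelial transcription factors. AMACR is the racemase that converts branched-chain fatty acyl-CoA and bile acid intermediates into the form that peroxisomes can oxidize, and pathologists stain for it to recognize prostate cancer.

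The cells were VCaP, an established human prostate cancer line that depends on androgen signalling and carries a TMPRSS2-ERG fusion. They grew in complete medium, so no group was described as hormone-depleted, and each culture was exposed for 24 h. The 4 groups were 0.1 nM dihydrotestosterone (DHT, an androgen), 10 µM enzalutamide with 100 nM dexamethasone (called the combination), 10 µM enzalutamide alone (an antiandrogen), and vehicle (DMSO). Dexamethasone is a synthetic glucocorticoid, and it was given only together with enzalutamide, so its change is read against enzalutamide alone. Each group had 3 cultures described as biological replicates, and 1 Illumina BeadChip measured each culture, 12 arrays in all. All cultures are of 1 line, so the p-values speak of the spread between its cultures only.

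Values are log2 intensities after background correction and quantile normalization across the 12 arrays. A probe was tested where its detection p-value was under 0.05 on at least 3 arrays, which kept 20265 probes, or 42.8%. All 12 luminal probes were detected on 12 of 12 arrays, and all were tested. On each array a luminal probe was read from 10 to 38 beads, and the standard error over those beads was 1.83% to 8.54% of its intensity. Changes come from a limma fit over all tested probes, are given with their standard errors, and count as called at a Benjamini-Hochberg adjusted p under 0.05. With 3 arrays against 3, an exact permutation test of a single probe cannot go below 0.1.

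The labelled cell type was checked against marker genes. Of the luminal markers, TMPRSS2, KRT8 and KRT18 were detected on 12 arrays and KLK3 (prostate-specific antigen) on 9. The basal keratins KRT5 and KRT14 were detected on 0 arrays and KRT15 on 1. Of 5 stromal genes 0 were kept, the pan-leukocyte gene PTPRC was detected on at most 1 array and the T cell gene CD3E on 0, and the neuroendocrine genes SYP and NCAM1 were detected on 0, while CHGA, INSM1, CD14 and CD68 were detected on all 12. The keratin set of these arrays was narrow: of 46 other keratin genes with a probe, 34 were detected on no array, and only KRT10 and KRT80 passed the filter. Mean raw intensity ran from 199 on vehicle replicate 3, the dimmest array, to 344, and correlations between arrays of 1 group from 0.986 to 0.993. Among probes detected nowhere, the arrays were split by the sign of their score on a first component (12.5% of the variance over 19189 probes). Set A held 6 (DHT 1 and 2, combination 1, enzalutamide 1, vehicle 1 and 2). Set B held another 6 (DHT 3, combination 2 and 3, enzalutamide 2 and 3, vehicle 3). Vehicle 3 scored 0.829, the other arrays of set B 0.0606 to 0.118, and those of set A -0.341 to -0.148. The component therefore mainly sets vehicle 3 apart. The split is measured from the arrays and is not a batch named in the labels. In these bulk arrays, fewer cells of a kind and less RNA per cell cannot be told apart.

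**Figure D1:**
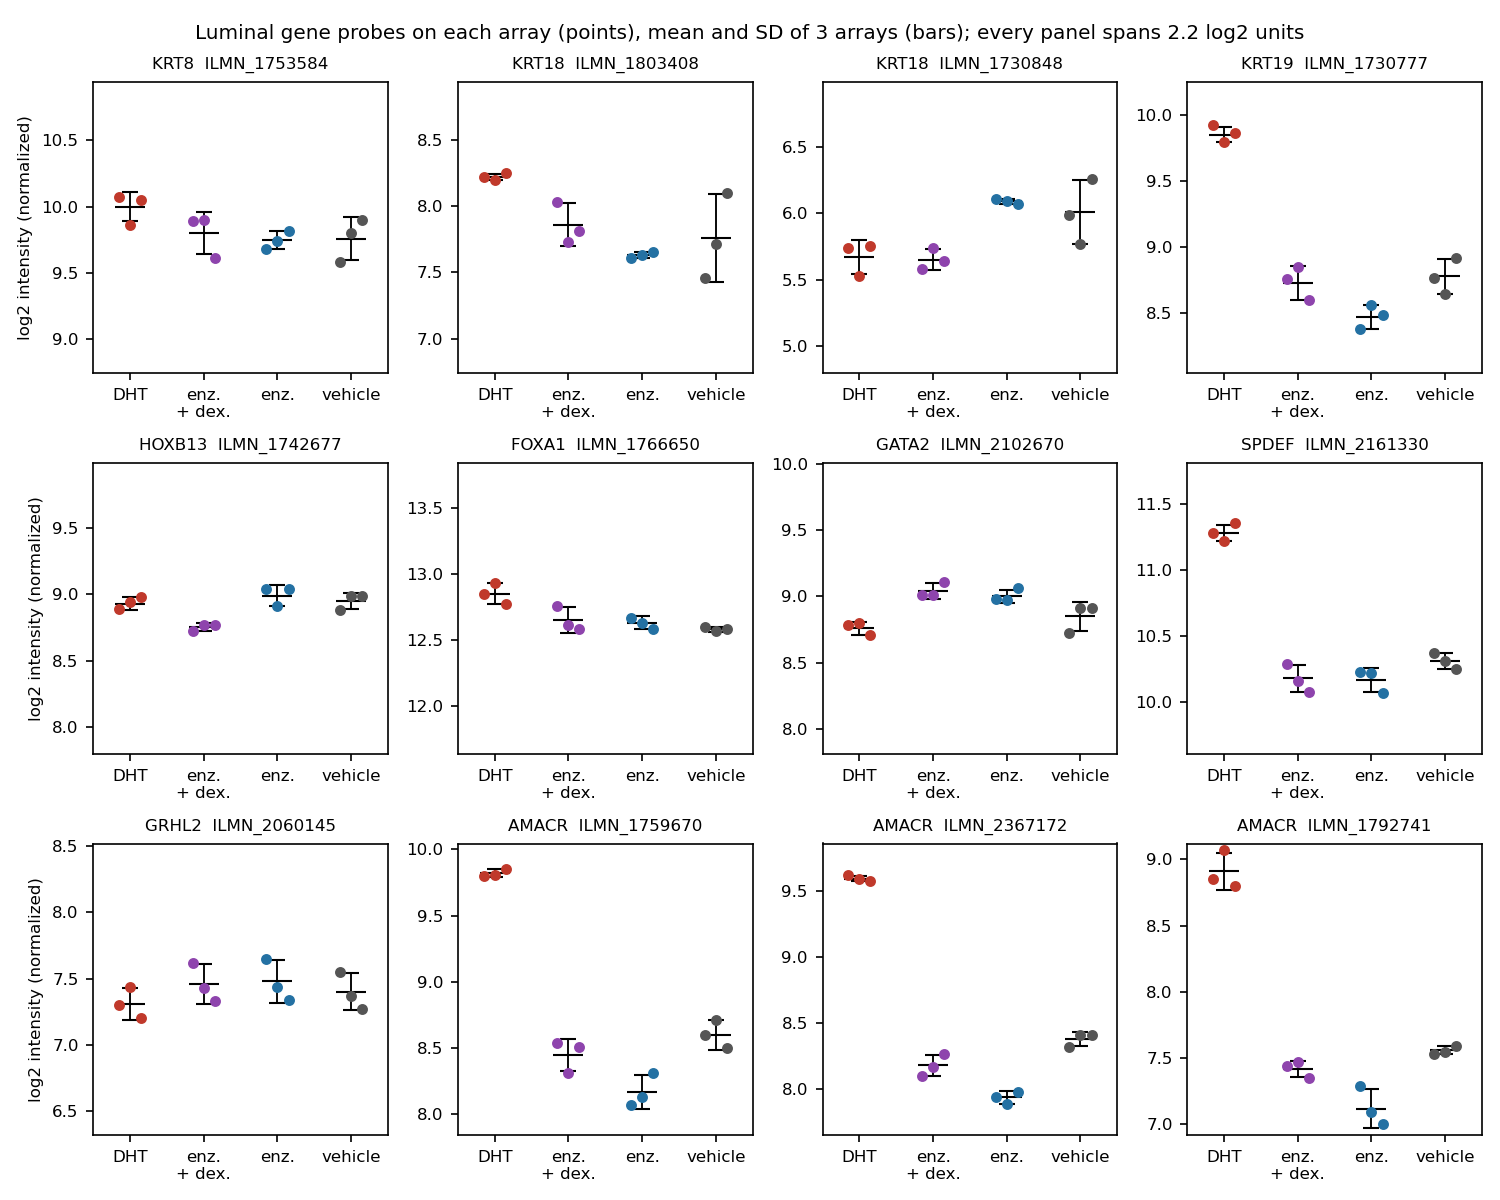
Log2 normalized intensity of each of the 12 probes (y axis, every panel spanning 2.2 log2 units) in the 4 groups (x axis: DHT, enzalutamide + dexamethasone, enzalutamide, vehicle). Points are arrays, the long bar is the mean and the whiskers the SD of 3 arrays. The DHT points of AMACR, KRT19 and SPDEF lie above every other point of their panels, whereas those of HOXB13, GRHL2 and KRT8 overlap the vehicle points.

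DHT against vehicle asks what added androgen did to these genes in medium that was not hormone-depleted. AMACR, KRT19 and SPDEF all rose about 2-fold, KRT18 rose on 1 of its 2 probes, FOXA1 rose by a small amount, and the probes of KRT8, HOXB13, GATA2 and GRHL2 did not pass the test. In counts, 7 of the 12 probes, from 5 of the 9 genes, had a called rise and 0 a called fall. Over all probes tested 17.4% were called in this comparison, 8.81% upward and 8.58% downward. The median change of the 12 probes was 0.37 on the log2 scale, beside 0.01 for all probes tested. At an unadjusted p under 0.05 there were 8 of the 12 and 6029 of all probes.

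AMACR had 3 probes, and all of them were highest with DHT. On probe ILMN_1759670 the DHT arrays read 9.80, 9.81 and 9.85, the combination arrays 8.54, 8.31 and 8.51, the enzalutamide arrays 8.07, 8.13 and 8.31, and the vehicle arrays 8.60, 8.71 and 8.50 (log2 intensity, replicates 1 to 3). All 3 DHT arrays stood more than 1 log2 unit above every other array, a gap far wider than the spread within any group. The second probe, ILMN_2367172, read 9.62, 9.59 and 9.57 with DHT, 8.10, 8.17 and 8.27 with the combination, 7.94, 7.89 and 7.98 with enzalutamide, and 8.32, 8.41 and 8.41 with vehicle. On this probe the 4 groups did not overlap at all, with DHT at the top and enzalutamide at the bottom. The third probe, ILMN_1792741, read 8.85, 9.07 and 8.80 with DHT and 7.44, 7.47 and 7.35 with the combination. It read 7.29, 7.09 and 7.0 with enzalutamide and 7.53, 7.55 and 7.59 with vehicle, and again no groups overlapped. Its combination and vehicle arrays separated at a change of only -0.14 ± 0.10 (limma adjusted p = 0.671). Here and below, the share of all probes whose arrays separate by group was not counted, so such separation is description only.

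Against vehicle, the DHT change of AMACR was 1.22 ± 0.10, 1.21 ± 0.08 and 1.35 ± 0.10 on the 3 probes (log2 ± SE, n = 3 arrays a group; limma adjusted p = 8.7e-06, 1.55e-06 and 5.19e-06). In linear terms DHT cells carried 2.33, 2.32 and 2.54 times the vehicle signal. Ordered from the largest rise down, the probes ranked 78, 80 and 54 among the 20265 tested. The 95% intervals, 1.0 to 1.43, 1.04 to 1.39 and 1.13 to 1.57, overlap one another. The probes are not independent measurements of AMACR, since they read the same RNA samples, and the transcripts each one covers were not analysed here.

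KRT19 was the only keratin with a comparable rise. Its probe ILMN_1730777 read 9.92, 9.79 and 9.86 with DHT, 8.76, 8.85 and 8.60 with the combination, 8.38, 8.56 and 8.49 with enzalutamide, and 8.77, 8.65 and 8.92 with vehicle. DHT arrays again stood apart from all others, and the combination and vehicle arrays overlapped. The change of 1.08 ± 0.10, or 2.11-fold, had an adjusted p of 2.5e-05 (limma) and ranked 129 of 20265.

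SPDEF, an ETS-family factor of secretory epithelia, was the transcription factor with the widest change. Probe ILMN_2161330 read 11.28, 11.22 and 11.35 with DHT, 10.29, 10.16 and 10.08 with the combination, 10.23, 10.22 and 10.07 with enzalutamide, and 10.37, 10.31 and 10.25 with vehicle. The 9 arrays without added DHT ran from 10.07 to 10.37, and the lowest DHT array, at 11.22, lay clear of them. The change was 0.97 ± 0.09, or 1.96-fold (limma adjusted p = 2e-05), rank 182 of 20265.

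KRT18 gave 2 different answers. Probe ILMN_1803408 read 8.22, 8.20 and 8.25 with DHT, 8.03, 7.73 and 7.81 with the combination, 7.61, 7.63 and 7.65 with enzalutamide, and 7.46, 7.71 and 8.10 with vehicle. The DHT and enzalutamide arrays were tightly grouped (SD 0.02 each), whereas the vehicle arrays spread widely (SD 0.33), with replicate 3 close to the DHT arrays. DHT raised this probe by 0.47 ± 0.14 over vehicle (limma adjusted p = 0.0389), a call that was lost without any DHT array or without vehicle replicate 1 or 2 (adjusted p between 0.0858 and 0.129). The call was also lost with no filter on dim probes, and scaling to a common median gave 0.71. Without vehicle replicate 3 the change was 0.64 with an adjusted p of 0.00328, and within array sets A and B it was 0.63 and 0.15.

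The other KRT18 probe, ILMN_1730848, pointed the other way. It read 5.74, 5.53 and 5.75 with DHT, 5.58, 5.74 and 5.64 with the combination, 6.11, 6.09 and 6.07 with enzalutamide, and 5.99, 5.77 and 6.26 with vehicle. Its DHT change was -0.34 ± 0.12 and missed the threshold (limma adjusted p = 0.0749), although every DHT array lay below every vehicle array. Its size moved with single arrays and with the processing, from -0.45 without vehicle replicate 2 (adjusted p = 0.0206) to -0.21 without vehicle replicate 3, -0.20 with scaling to a common median and -0.12 without background correction, none of the last 3 called. The stricter filter on dim probes, which tests fewer of them, called it (adjusted p = 0.0399). This probe was dim, at 116.4 to 168.1 raw units on arrays whose lowest probe read 66.1. The annotation assigns this probe and the other KRT18 probe to different transcript records of the gene. RefSeq also lists 68 KRT18 pseudogenes, 52 of KRT8 and 5 of KRT19. Which transcripts or copies either probe can bind was not tested. The KRT18 result is therefore given per probe, with opposite signs.

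KRT8, the filament partner of KRT18 and its neighbour on the chromosome, read 10.07, 9.86 and 10.05 with DHT, 9.89, 9.90 and 9.61 with the combination, 9.68, 9.74 and 9.82 with enzalutamide, and 9.58, 9.80 and 9.90 with vehicle on probe ILMN_1753584. DHT and vehicle arrays overlapped, and the change of 0.24 ± 0.11 did not pass (limma adjusted p = 0.191). It was 0.15 without vehicle replicate 1 and 0.46 with scaling to a common median (0.33 relative to the median of all probes), with no call in either. Its 95% interval, -0.01 to 0.48, reaches the size of the KRT18 ILMN_1803408 rise.

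FOXA1 was tightly held. Probe ILMN_1766650 read 12.85, 12.93 and 12.77 with DHT, 12.76, 12.61 and 12.58 with the combination, 12.67, 12.63 and 12.58 with enzalutamide, and 12.60, 12.57 and 12.58 with vehicle. DHT arrays were the highest of all, though the lowest of them, at 12.77, nearly met the highest combination array, at 12.76. The rise over vehicle was 0.26 ± 0.08, or 1.20-fold, with an adjusted p of 0.0453 (limma). Leaving out any 1 of the 6 arrays put the adjusted p above the threshold (0.0554 to 0.148), and scaling to a common median gave 0.421.

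The remaining factors lay near 0. HOXB13 (ILMN_1742677) read 8.89, 8.94 and 8.98 with DHT, 8.72, 8.77 and 8.77 with the combination, 9.04, 8.91 and 9.04 with enzalutamide, and 8.88, 8.99 and 8.99 with vehicle. GATA2 (ILMN_2102670) read 8.78, 8.80 and 8.71 with DHT, 9.01, 9.01 and 9.11 with the combination, 8.98, 8.97 and 9.06 with enzalutamide, and 8.72, 8.91 and 8.91 with vehicle. GRHL2 (ILMN_2060145) read 7.30, 7.44 and 7.20 with DHT, 7.62, 7.43 and 7.33 with the combination, 7.65, 7.44 and 7.34 with enzalutamide, and 7.55, 7.37 and 7.27 with vehicle. DHT and vehicle arrays overlapped for all 3 genes, and the combination arrays of HOXB13 were the lowest of its 12. The DHT changes were -0.02 ± 0.08, -0.09 ± 0.08 and -0.08 ± 0.12 for HOXB13, GATA2 and GRHL2 (limma adjusted p = 0.9, 0.566 and 0.706), with 95% intervals of -0.19 to 0.15, -0.27 to 0.10 and -0.34 to 0.18. All 3 intervals end below the 95% interval of the SPDEF rise, 0.78 to 1.16. Scaling the arrays to a common median shifted the median of all probes by 0.13 and turned the sign of all 3, to 0.21, 0.15 and 0.12; relative to that shift they were 0.08, 0.02 and -0.01.

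**Figure D2:**
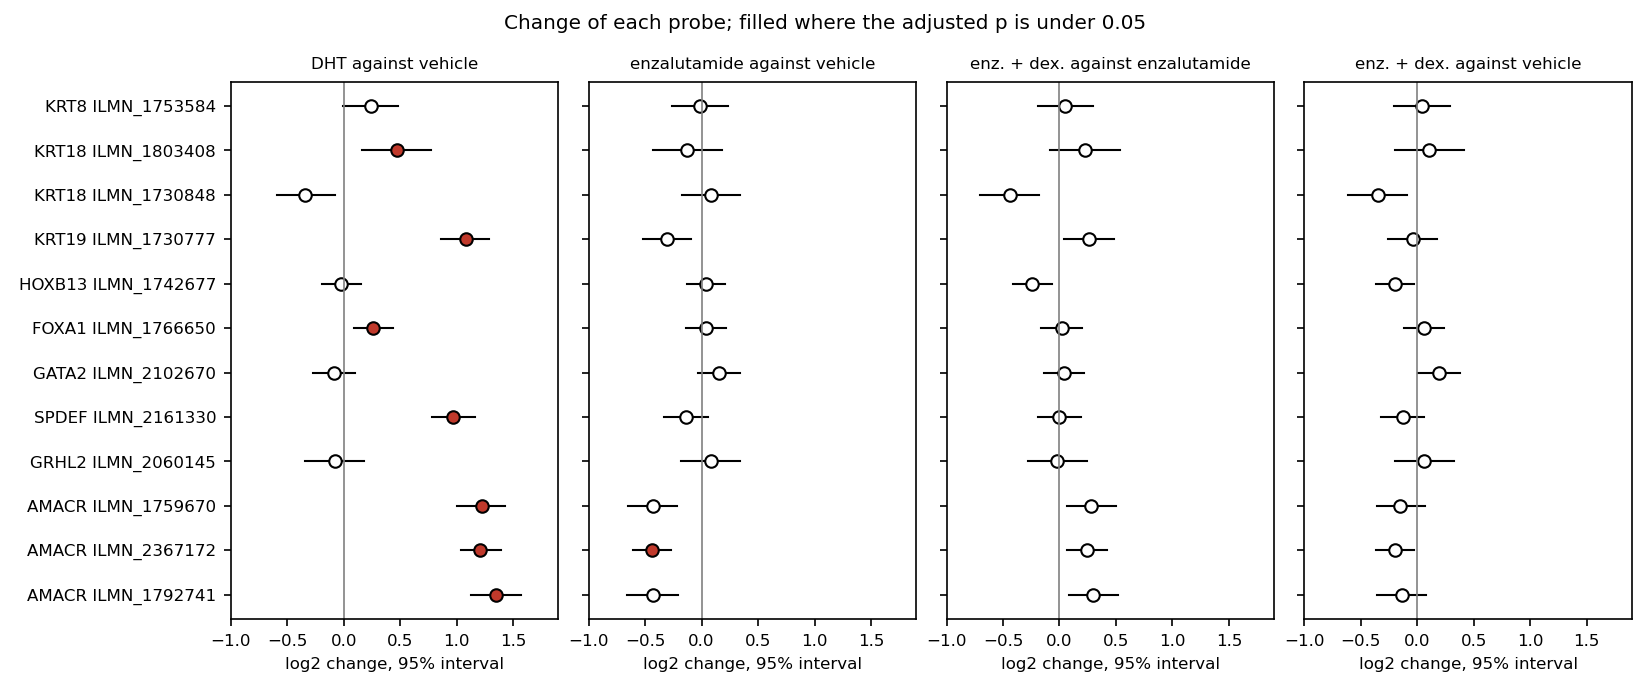
Log2 change of each of the 12 probes (x axis, with its 95% interval) in 4 comparisons: DHT against vehicle, enzalutamide against vehicle, enzalutamide + dexamethasone against enzalutamide, and enzalutamide + dexamethasone against vehicle. Filled points have an adjusted p under 0.05: there are 7 with DHT, 1 with enzalutamide and 0 in the other panels.

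Promoter sequence was looked at for the members that rose with DHT, since AMACR, SPDEF and FOXA1 each have an entry in the RefSeq promoter table (GRCh38.p14). KRT8 and GATA2 have entries as well, 6 promoters of 5 members in all, and KRT18, KRT19, HOXB13 and GRHL2 are named only. The 250 bases before each start are printed below 5′ to 3′ on the gene's strand, which is the minus strand for all 3, and capitals mark a forkhead match, the motif family that FOXA1 binds. The regions are chr5:34008051-34008300 for AMACR, chr6:34556330-34556579 for SPDEF and chr14:37595250-37595499 for FOXA1.
AMACR: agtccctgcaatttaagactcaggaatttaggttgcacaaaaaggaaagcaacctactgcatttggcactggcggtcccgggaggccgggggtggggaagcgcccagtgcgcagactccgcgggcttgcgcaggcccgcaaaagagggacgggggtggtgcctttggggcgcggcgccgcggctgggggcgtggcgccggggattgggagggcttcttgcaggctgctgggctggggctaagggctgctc
SPDEF: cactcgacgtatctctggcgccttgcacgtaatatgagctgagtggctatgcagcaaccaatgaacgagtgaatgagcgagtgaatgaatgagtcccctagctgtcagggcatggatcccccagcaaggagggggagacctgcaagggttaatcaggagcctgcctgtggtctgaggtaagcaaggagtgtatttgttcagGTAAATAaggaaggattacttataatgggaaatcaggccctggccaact
FOXA1: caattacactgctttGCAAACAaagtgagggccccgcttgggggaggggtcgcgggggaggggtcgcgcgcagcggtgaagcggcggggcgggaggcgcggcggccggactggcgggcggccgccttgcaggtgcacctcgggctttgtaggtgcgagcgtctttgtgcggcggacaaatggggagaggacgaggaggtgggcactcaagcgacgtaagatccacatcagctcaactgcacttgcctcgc
The search covered 6 motifs on both strands: the full palindromic steroid hormone response element, its shorter arm TGTTCT (contained in the full element), the GATA spellings AGATAA or else TGATAA, the forkhead spellings TGTTTAC, also TATTTAC, also TGTTTGC, also TATTTGC, the HOX13 spelling CCAATAAA, plus the GRHL spelling AACCGGTT. SPDEF held GTAAATA 49 bases before its start, FOXA1 held GCAAACA 235 bases before its own, and AMACR, which rose most, held none of the 6. No other match lay in the 6 promoters searched. Among 35116 promoters of the table, 10.6% hold a forkhead spelling, 12.4% the shorter arm, 14.6% a GATA spelling, 0.863% the HOX13 and 0.117% the GRHL spelling, and 1 promoter (0.00285%) the full element. These are descriptions of letters in short windows, and say nothing of binding elsewhere in the genome.

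Enzalutamide against vehicle asks what the antiandrogen did in the same medium. AMACR was the only luminal gene with a called fall: 1 of the 12 probes fell and 0 rose, where 1.22% of all probes were called, 0.538% upward and 0.681% downward. The called probe was ILMN_2367172, at -0.44 ± 0.08 or 0.74 times vehicle (limma adjusted p = 0.0196), and its 3 enzalutamide arrays lay below its 3 vehicle arrays. The other AMACR probes had the same size, -0.43 ± 0.10 on both, and their enzalutamide arrays also lay below all vehicle arrays, but they missed the threshold (adjusted p = 0.063 and 0.0681). The call depended on single arrays and on scaling: it was lost without any enzalutamide array or vehicle replicate 2 or 3 (adjusted p 0.057 to 0.0868), and with scaling to a common median the change was -0.27 (adjusted p = 0.81), or -0.40 relative to the median of all probes.

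KRT19 was lower, at -0.31 ± 0.10 with enzalutamide, and did not pass (limma adjusted p = 0.2). Its enzalutamide and vehicle arrays did not overlap, but neither did those of SPDEF, which was lower, or GATA2, which was higher, both without a call. With scaling to a common median KRT19 was at -0.15, or -0.27 relative to the median of all probes (limma adjusted p = 0.892). SPDEF changed by -0.14 ± 0.09 (adjusted p = 0.556), and by 0.01 with that scaling. The intervals of both as first given, -0.52 to -0.09 and -0.33 to 0.06, exclude a fall of the size of the DHT rise. The other probes ran from -0.13 for KRT18 ILMN_1803408 to 0.15 for GATA2. The median of the 12 probes was -0.07, beside 0.01 for all probes, and 4 of the 12 had an unadjusted p under 0.05, as did 2688 of all probes.

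The combination against enzalutamide isolates what dexamethasone did in antiandrogen-treated cells, and it shares no array with DHT against vehicle. None of the luminal probes was called: 0 of 12 passed in limma, where 2.37% of all probes were called, 1.27% upward and 1.1% downward. At an unadjusted p under 0.05 there were 6 of the 12, and 2594 of all probes. The 6 were the 3 AMACR probes and KRT19, which were higher, and KRT18 ILMN_1730848 and HOXB13, which were lower.

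AMACR was higher by 0.28 ± 0.10, 0.24 ± 0.08 and 0.30 ± 0.10 on its 3 probes in the combination than in enzalutamide (limma adjusted p = 0.213, 0.171 and 0.204). KRT19 was higher by 0.26 ± 0.10 (adjusted p = 0.269). On KRT19 and the AMACR probes other than ILMN_1759670, the combination arrays lay above all enzalutamide arrays. On ILMN_1759670 combination replicate 2, at 8.31, met enzalutamide replicate 3, at 8.31. The share of all probes separated in this way was not counted, so the separation is description only. SPDEF was at 0.00 ± 0.09, with an interval of -0.19 to 0.19 (adjusted p = 0.995). HOXB13 was lower, at -0.24 ± 0.08 (adjusted p = 0.175), and its combination arrays, 8.72 to 8.77, lay below all 9 others, which ran from 8.88 to 9.04. KRT18 ILMN_1730848 was lower, at -0.44 ± 0.12 (adjusted p = 0.0949; 0.0438 with the stricter filter, under which fewer probes are tested), while ILMN_1803408 was higher by 0.23 ± 0.14 (adjusted p = 0.561).

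Set against vehicle, the combination left 0 of the 12 probes called in limma, where 0.646% of all probes were called, 0.419% upward and 0.227% downward. At an unadjusted p under 0.05 there were 4 of the 12 and 2228 of all probes: HOXB13 (-0.20 ± 0.08), KRT18 ILMN_1730848 (-0.35 ± 0.12), AMACR ILMN_2367172 and GATA2 (0.19 ± 0.08). AMACR differed from vehicle by -0.15 ± 0.10, -0.20 ± 0.08 and -0.14 ± 0.10, KRT19 by -0.04 ± 0.10 and SPDEF by -0.13 ± 0.09. Scaling to a common median, which moved the median of all probes by 0.19, turned these signs (AMACR 0.11, 0.06 and 0.12, KRT19 0.22, SPDEF 0.13), as it did for HOXB13 (0.06), none of them called; relative to that median AMACR was at -0.08, -0.13 and -0.08, KRT19 at 0.02 and SPDEF at -0.07. Mean levels of each AMACR probe in the combination lay between those of enzalutamide and vehicle, and neither difference passed; with that scaling they lay above vehicle. This comparison shares its arrays with the previous ones, so its values restate them and add no independent support.

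**Figure D3:**
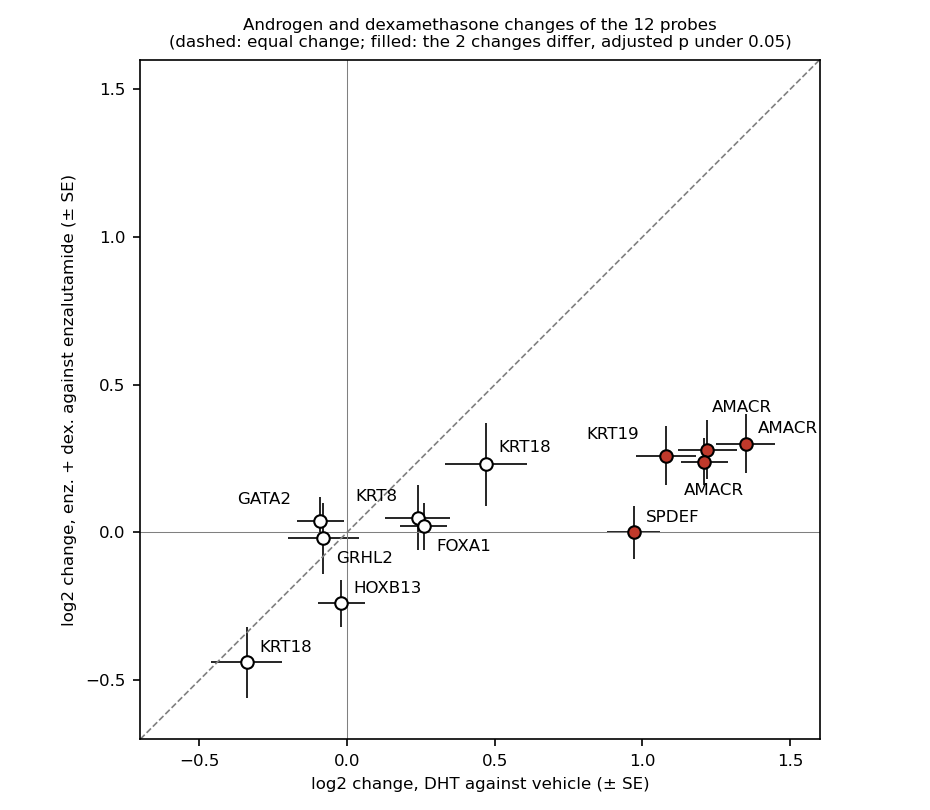
Log2 change with DHT (x axis, DHT against vehicle) and with dexamethasone (y axis, enzalutamide + dexamethasone against enzalutamide) for the 12 probes; bars are standard errors and the dashed line marks equal change. The 5 filled probes, of AMACR, KRT19 and SPDEF, have changes that differ at an adjusted p under 0.05 and lie below the line.

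Whether dexamethasone moved the luminal genes as DHT did was tested as the difference of both changes. The DHT change was measured without enzalutamide, and the dexamethasone change only in its presence. Hormone, dose and the presence of enzalutamide therefore cannot be told apart in this difference. The difference is dexamethasone change minus DHT change. The difference was called below 0 for 5 of the 12 probes and above 0 for 0. Over all probes 4.8% were called, 2.51% upward and 2.29% downward. The median difference over the 12 was -0.24, beside -0.00 for all probes. SPDEF had -0.97 ± 0.12 (limma adjusted p = 0.000952), KRT19 -0.81 ± 0.14 (0.00651), and AMACR -0.93 ± 0.14, -0.97 ± 0.11 and -1.05 ± 0.14 (0.00253, 0.000423 and 0.00152). The difference for KRT19 lost its call with scaling to a common median (-0.94, adjusted p = 0.102). For KRT18 ILMN_1803408 and FOXA1 the difference was -0.24 for each (adjusted p = 0.603 and 0.299), so their DHT rises cannot be called larger than their dexamethasone changes.

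Ordered by mean level, the groups ran DHT, vehicle, combination, enzalutamide for KRT19, SPDEF and all 3 AMACR probes. Scaling to a common median put vehicle below the combination for all of these probes, and for SPDEF below enzalutamide as well. On each of these 5 probes only the step between DHT and vehicle passed. DHT against enzalutamide, the widest span, called 7 of the 12 probes (6 upward, 1 downward), where 23% of all probes were called. AMACR differed by 1.65, 1.66 and 1.78, a 3.14-, 3.15- and 3.44-fold span, KRT19 by 1.38 and SPDEF by 1.11. KRT18 ILMN_1803408 differed by 0.59 ± 0.14 (limma adjusted p = 0.00901) and kept its call under all 15 alternatives other than the array sets, with changes of 0.41 to 0.67. KRT18 ILMN_1730848 differed by -0.42 ± 0.12 (adjusted p = 0.0233), and lost its call under 6 of 14.

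DHT against the combination called 6 of the 12 probes (5 upward, 1 downward), where 16.1% of all probes were called. The probe that was lower was GATA2, at -0.28 ± 0.08 (limma adjusted p = 0.0418): its DHT arrays, 8.71 to 8.80, lay below its combination arrays, 9.01 to 9.11. The GATA2 call was lost under 8 of 15 alternatives, namely leaving out any 1 of the 6 arrays (adjusted p 0.0737 to 0.137), the array set as a block (0.0572) and scaling to a common median (0.553). For KRT8, HOXB13, FOXA1, GATA2, GRHL2 and the KRT18 probes no step between neighbouring groups passed.

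The luminal genes with a called DHT change were each set against all other genes by Pearson correlation over the 12 arrays, as a description of shared pattern. The group differences dominate these 12 points, and 11413 genes were compared for each. AMACR was most like SMS (0.992), SASH1 (0.989) and KAT2B (0.989). KRT19 was most like FASN, the fatty acid synthase (0.990), ALDH1A3 (0.987) and TMPRSS2, the androgen-responsive serine protease (0.987). SPDEF was most like RAP1GAP (0.993), EML1 (0.990) and NDFIP2 (0.989). The DHT changes of these 9 genes ran from 0.64 ± 0.09 for EML1 to 1.49 ± 0.08 for TMPRSS2. FOXA1 was most like TIPRL (0.948), CCDC32 (0.945) and ARID4B (0.944), and KRT18 ILMN_1803408 most like MMADHC (0.949), ATP6V1G1 (0.928) and TMEM167A (0.928).

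Other luminal and androgen-responsive genes give the setting, 13 of them tested on 1 probe each. With DHT 10 of the 13 rose and 0 fell, with a median of 0.53, where 17.4% of all probes were called. At 1 probe a gene 2683 of 11414 were called. The 10 included TMPRSS2 (1.49 ± 0.08), KLK3 (1.02 ± 0.12), SLC45A3, a prostate membrane transporter (0.93 ± 0.08), and the cold-sensing channel TRPM8 (0.72 ± 0.10). CDH1 (0.23 ± 0.08), EPCAM (0.11 ± 0.11) and CLDN3 (0.01 ± 0.10) were not called (limma adjusted p = 0.0683, 0.593 and 0.98). With enzalutamide 5 fell and 0 rose, where 1.22% of all probes were called. The falls were led by TRPM8 (-1.03 ± 0.10), SLC45A3 (-0.74 ± 0.08), KLK2 (-0.59 ± 0.08) and KLK3 (-0.58 ± 0.12). With the combination against enzalutamide 4 rose, where 2.37% of all probes were called: KLK2 (0.87 ± 0.08), SLC45A3 (0.73 ± 0.08), KLK3 (0.67 ± 0.12) and STEAP2, a metalloreductase (0.67 ± 0.10). The difference between the dexamethasone and DHT changes was called for TMPRSS2 (-1.25 ± 0.11) and TRPM8 (-0.93 ± 0.13), where 4.8% of all probes were called. Against vehicle the combination was lower in TRPM8 alone (-1.24 ± 0.10), where 0.646% of all probes were called. The differences of AMACR, KRT19 and SPDEF ran from -0.81 to -1.05, beside -1.25 for TMPRSS2, and none of their probes had a called dexamethasone rise such as those of KLK2 and SLC45A3.

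Relatives of the transcription factors were mostly undetected or not called. Of 22 FOXA, GATA, GRHL, HOX and ETS-family relatives with a probe, 10 were tested and 8 were detected on no array. With DHT 2 of the 10 fell, the SPDEF relative ELF5 (-0.57 ± 0.12) and the HOXB13 paralog HOXC13 (-0.42 ± 0.13), and 0 rose, a share close to the 17.4% called over all probes. ELF5 was also lower in the combination than in enzalutamide (-0.51 ± 0.12). SPDEF and ELF5 therefore had DHT changes of opposite sign. The other ETS-family relatives tested, EHF (0.30 ± 0.12) and ELF3 (0.06 ± 0.09), had the sign of SPDEF, without a call (limma adjusted p = 0.113 and 0.725). Of the 2 other keratins tested, KRT10 rose with DHT (0.38 ± 0.12, limma adjusted p = 0.0428).

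Among 10 tested genes that bind or anchor keratin filaments, DHT lowered the desmosome linker JUP (-0.46 ± 0.09) and envoplakin, EVPL (-0.39 ± 0.11), and raised 0, again close to the 17.4% of all probes. The desmosomal plakophilin PKP1 was lower with enzalutamide (-0.98 ± 0.10) and with the combination (-1.16 ± 0.10), both against the same vehicle arrays. Among 10 tested genes of branched-chain and bile acid oxidation, the pathway AMACR feeds, 0 rose with DHT and 2 fell, also near the 17.4% of all probes: SLC27A2, an acyl-CoA synthetase of very long chain and bile acids (-0.72 ± 0.08), and PEX7, a peroxisomal import receptor (-0.37 ± 0.11). SLC27A2 was higher in the combination than in enzalutamide (0.53 ± 0.08), and its dexamethasone change exceeded its DHT change by 1.24 ± 0.12, opposite in sign to AMACR. CROT (0.37 ± 0.14) and ACAA1 (0.28 ± 0.10) had DHT changes of the sign of AMACR, without a call (limma adjusted p = 0.0943 and 0.071). The median DHT change of the list was -0.09.

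Markers of luminal and other cell types were read beside the DHT result. The 5 luminal marker probes, summed on the linear scale, had a log2 level of 12.29 to 12.41 with DHT and 11.21 to 11.41 with vehicle. They are the probes of TMPRSS2, KLK3, KRT8 and KRT18, so the sum contains probes already described and is not a separate reading. With DHT, TMPRSS2 changed by 1.49 ± 0.08 and KLK3 by 1.02 ± 0.12. KRT8 changed by 0.24 ± 0.11 and the KRT18 probes by 0.47 ± 0.14 and -0.34 ± 0.12. The 3 basal probes summed to 5.96 to 6.15 with DHT and 5.99 to 6.27 with vehicle, and the 9 stromal probes to 7.66 to 7.82 with DHT and 7.73 to 7.79 with vehicle. The 10 immune probes summed to 8.94 to 8.99 with DHT and 9.14 to 9.26 with vehicle, with CD14 lower, at -0.87 ± 0.09 and CD68 at -0.05 ± 0.13. The 7 neuroendocrine probes summed to 8.37 to 8.43 with DHT and 8.11 to 8.31 with vehicle, with INSM1 higher by 0.42 ± 0.11 and CHGA at -0.21 ± 0.14. The part of these genes in the luminal result was not tested.

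**Figure D4:**
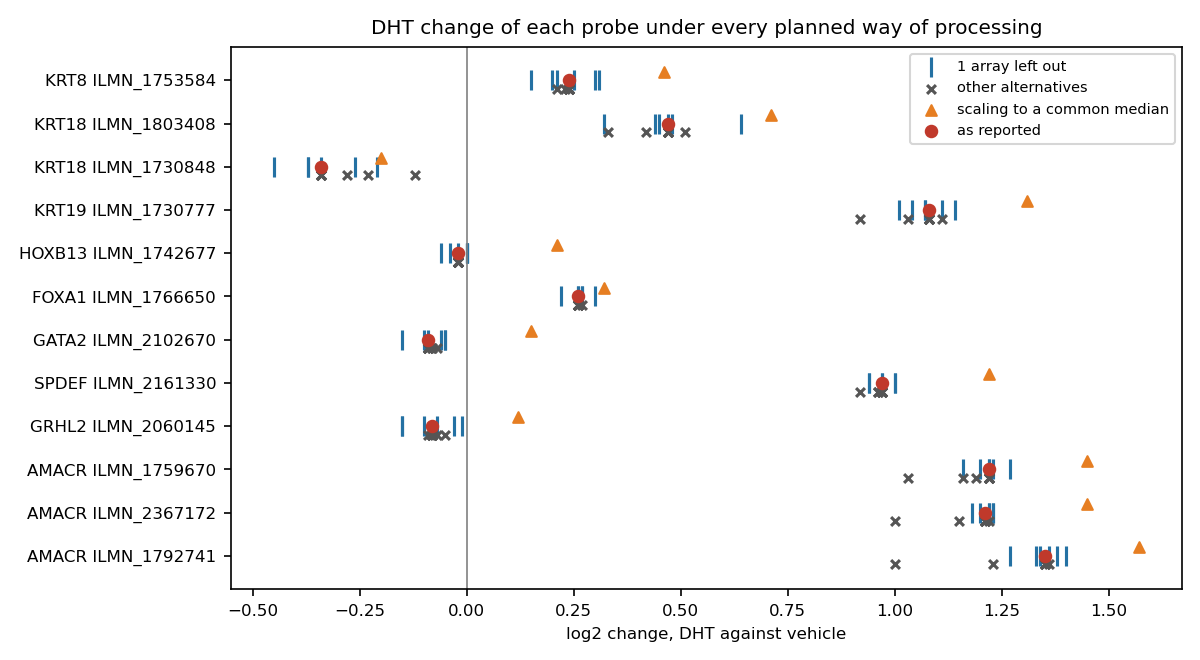
Log2 change of each of the 12 probes with DHT against vehicle (x axis) as reported (circles), with 1 array left out (vertical ticks), with arrays scaled to a common median (triangles) and under the other ways of processing (crosses). AMACR, KRT19 and SPDEF stay at or above 0.92 in all fits drawn, which leave out those within array sets, and the triangles of HOXB13, GATA2 and GRHL2 lie on the other side of 0 from their circles.

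The 5 DHT calls of AMACR, KRT19 and SPDEF held under all alternatives other than the fits within array sets. AMACR ranged from 1.03 to 1.45, 1.0 to 1.45 and 1.0 to 1.57 on its 3 probes, KRT19 from 0.92 to 1.31 and SPDEF from 0.92 to 1.22. Within array sets A and B, fitted apart, AMACR changed by 1.15 and 1.35, 1.24 and 1.16, and 1.42 and 1.21, KRT19 by 1.14 and 0.94, and SPDEF by 0.91 and 1.1. These are sizes only: set B compares 1 DHT array with 1 vehicle array, so no test is read from it.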

How the data were processed

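RNA of 12 VCaP cultures, 3 a group, was labelled with biotin and hybridized to Illumina BeadChips, 1 array a culture, per the labels. The deposited table holds the authors' intensity of each probe on each array, exported with GenomeStudio (per the submitters' processing notes, version not given in the sources used here) and not normalized, with a deposited detection p-value, and its deposited bead numbers and bead standard errors are other columns used only to describe precision. The second deposited table holds intensities the authors had processed on a linear scale, with 29.5% of values below 0; it was one of the alternatives, its log2 taken after adding 42.5.

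Here the intensities went through neqc of limma 3.58.1 (R 4.3.3) with an offset of 16 and quantile normalization, the background being inferred from the detection p-values. The 20265 of 47322 probes with detection p under 0.05 on 3 or more arrays were tested. The platform annotation gave 30112 probes 1 symbol and 8 several, and left 17202 unlisted. lmFit and eBayes estimated 1 mean a group (8 residual and 3.71 prior degrees of freedom); tests were two-sided, and p-values were adjusted by Benjamini-Hochberg over all 20265 probes. DHT and enzalutamide were each set against vehicle, the combination against enzalutamide and against vehicle, and the dexamethasone change against the DHT change; DHT against enzalutamide and against the combination served the ordering of groups. Comparisons that share arrays are not independent. The fit was tested on simulated data.

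Alternatives were no filter, a stricter filter, no background correction, scaling to a common median, the authors' processed table, 1 probe a gene, the replicate number as a block, the array set as a block, array weights, and leaving out each array; fits within each array set were chosen after seeing the data. Every probe of the 9 genes is described. From each list of related genes up to 4 called genes a comparison were named by size of change. For DHT against vehicle some genes without a call were named beside them. The 3 most similar genes were named by Pearson correlation. The members, the lists and the rules were chosen with earlier results of these data known. Intervals cover 95%.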

Additional observations from a re-analysis of the deposited data

How the results depend on the processing

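The number of luminal probes called with DHT against vehicle was 7, and 5 to 6 when 1 array was left out; it was 4 within array set B alone, 5 in set A, 6 with scaling to a common median and 8 with the stricter filter. All were rises but for KRT18 ILMN_1730848, the 1 fall with the stricter filter and without vehicle replicate 2. With enzalutamide against vehicle 1 probe was called, and 0 to 1 when 1 array was left out. That count was 2 with array weights, 2 in the authors' processed table, 3 without background correction and 3 with the stricter filter, all of them AMACR probes, and 0 with scaling to a common median, 0 in set A and 0 in set B. The combination against enzalutamide called 0 but for 1 with the stricter filter (KRT18 ILMN_1730848), and the combination against vehicle called 0 throughout. The difference between the dexamethasone and DHT changes called 5, and 5 when any array was left out; it called 3 with 1 probe a gene, where AMACR counts once, 0 in set A and 0 in set B. DHT against enzalutamide called 5 to 9 and DHT against the combination 4 to 8. The sets hold 1 or 2 arrays a group, and where a group has 1 array the p-values rest on the spread of other groups, so a call kept or lost within them says little about stability.

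Over 1479 values of single probes under alternatives, 57 lost a call, 22 gained one and 0 reversed with a call on either side. Another 57 differed in sign without a call, 21 of them by more than 1 standard error and 17 of them under scaling to a common median, which shifted the median of all probes by 0.13 with DHT, 0.12 with enzalutamide and 0.19 with the combination, all against vehicle. The cause of the shift was not tested.

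With the replicate number as a block the counts were 7, 1, 0, 0 and 5, the same as without it. The numbers are not treated as a pairing: of 18 pairs of arrays with 1 number, 11 had deviations correlated above 0.1 (range -0.10 to 0.23), although 11 of 12 arrays correlated best with an array of their own number. Array signal limits what can be seen: KRT18 ILMN_1730848 lay near background, and 3 arrays a group bound each change only to about the 95% intervals given.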
